A study of Mus musculus with 6 samples.

Results

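The MYC family and its MAX network were followed through the expression tables of mouse embryonic stem cells given vitamin D3 with or without an inhibitor of MLL1. The members were taken by gene name, and 9 were looked for: Myc, Mycn, Mycl, Max, Mga, Mnt, Mxd3, Mxd4 and Mxi1. All 9 were found, each in 1 row that names no other gene, among 49377 gene names in all. The names were chosen with earlier results of these tables known.

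The labels list 6 libraries in 3 groups of 2 biological duplicates. Every group is of blastocyst-derived embryonic stem cells with the genotype Mll1fl/fl; Cre-ER TM on the C57BL/6J strain, so the untreated cells carry the floxed Mll1 alleles and the Cre as well. The labels mention no tamoxifen and do not say what drives the Cre. The groups are untreated cells, cells given 1 µM 1α,25-dihydroxyvitamin D3 (VD3, the hormonally active vitamin D) for 5 days, and cells given 1 µM VD3 together with 100 µM MM-401 for 5 days. MM-401 inhibits the histone methyltransferase MLL1. No group received MM-401 alone. Cells grew on mouse embryonic fibroblast feeder cells with leukemia inhibitory factor in medium with 15% serum or 20% serum replacement. The labels describe both treatments in serum medium and do not say which medium the untreated libraries had. They give no time in culture for the untreated libraries either, so it may differ from the 5 days of the treatments. Levels below run from untreated through VD3 to VD3 plus MM-401, here called the combination. The deposited tables hold 1 pooled column per group, so no value below has a replicate error and no test between groups was possible. The intervals given are the authors' own confidence bounds of each FPKM (fragments per kilobase of transcript, scaled to the depth of the library), and their level is not stated. They describe the authors' model of a pool and not the spread between libraries. The column of the untreated pool and that of the combination have names that the labels explain only in part. They were matched by the beginning of the name, so the comparisons rest on that match.

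MYC proteins are transcription factors of the basic helix-loop-helix leucine zipper class that bind DNA only as pairs with MAX. MAX also pairs with the MXD proteins and MNT, which bring SIN3 corepressor complexes to the same sites and so oppose MYC, and with MGA, a large protein that also holds a T-box domain and belongs to the Polycomb complex PRC1.6. In mouse embryonic stem cells MYC and MYCN are known for sustaining growth and self-renewal, while MAX and MGA are known for keeping germline genes silent.

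The site the whole network shares is the E-box CACGTG, which reads the same on both strands. RefSeq promoter sequences of build GRCm38.p6, covering 250 bases before to 50 after a start site, were found for 8 of the 9 members in 10 windows. Myc has no entry in the table used. The E-box occurs in the promoters of 3 members, the common partner Max and the MAX-binding repressors Mnt and Mxd4. These stretches of 30 bases are shown because they carry the network's own motif in the network's own genes. They are written 5′ to 3′ on the strand of the gene, with the E-box in capitals.
Max: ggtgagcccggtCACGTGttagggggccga
Mnt: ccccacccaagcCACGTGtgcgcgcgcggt
Mxd4: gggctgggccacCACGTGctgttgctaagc
The Max stretch lies on the minus strand at chr12:76962234-76962263, and its E-box begins 3 bases before the start site. The Mnt stretch lies on the plus strand at chr11:74830789-74830818, with the E-box beginning 123 bases before the start. The Mxd4 stretch lies on the minus strand at chr5:34187912-34187941, with the E-box beginning 219 bases before the start. Over all 27025 genes of that table, 8.09% hold a CACGTG in at least 1 window. A match is a description of the letters and not of binding.

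Markers of embryonic stem cells were high in every pool. The 9 of 10 listed markers with a row of their own summed to 2400.5 FPKM in untreated cells, 3747 with VD3 and 3791 in the combination. The 12 fibroblast markers, which feeder cells would bring, summed to 20.6, 29.2 and 20.4 FPKM in that order, with 7, 7 and 8 of them below 1 FPKM, among them the collagen genes Col1a1 and Col1a2 in every pool. Thy1 was the highest of them at 7.46, 13.8 and 9.41 FPKM, and Col3a1 was at 4.19, 3.93 and 0.553 FPKM. By estimated count Col3a1 had only 13.8, 10.7 and 23.3, highest in the combination, so its FPKM and its counts run in different orders. Summed levels were 14.7, 18.5 and 13.7 FPKM for 8 primitive endoderm markers, 169.6, 258 and 238 FPKM for 8 trophectoderm markers, with Krt18 the highest, and 17.6, 26.1 and 22.4 FPKM for 7 of 8 neuroectoderm and mesoderm markers with a row of their own. These 4 sums were each highest in the VD3 pool, as were the levels of Myc and Mycn, and their part in those levels was not tested. Over loci with a valid status the pools held 62081406, 73383193 and 73292511 estimated counts.

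**Figure D1:**
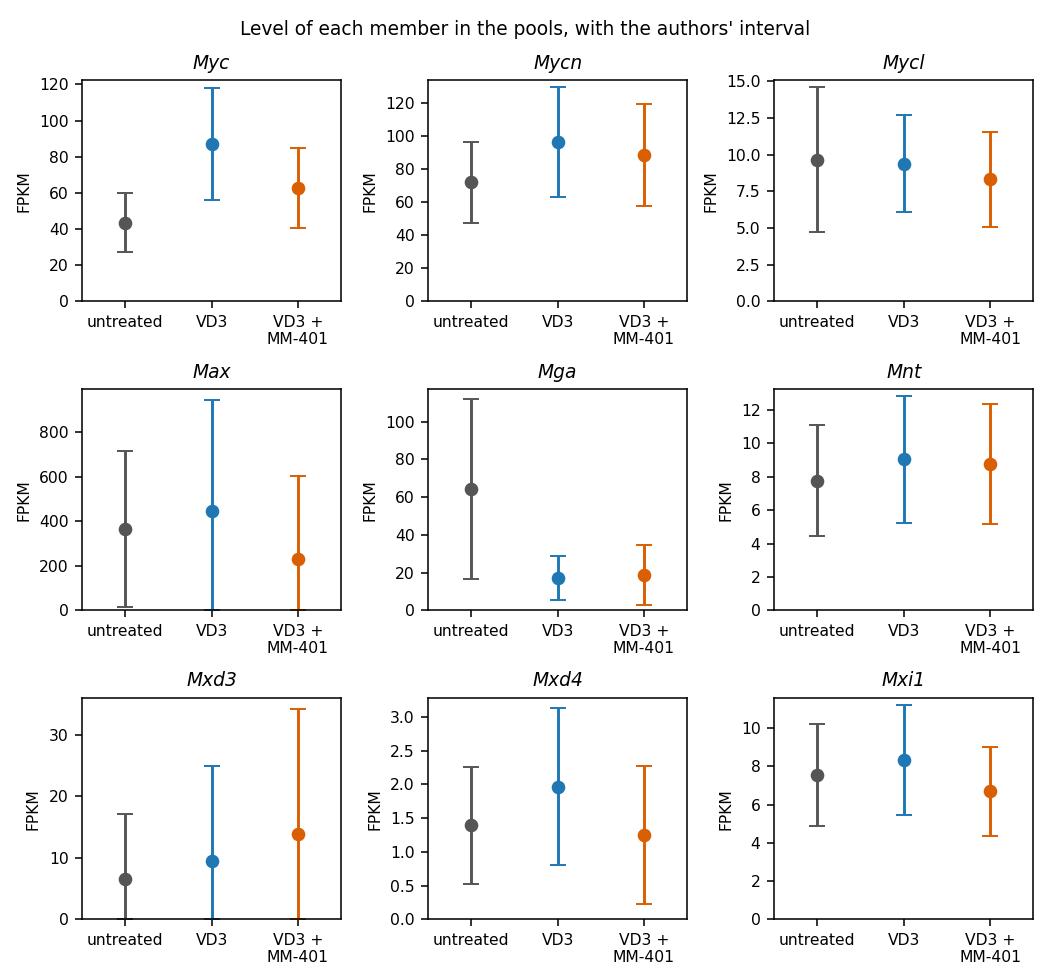
Level of each of the 9 members in FPKM (linear vertical axis from 0, a scale of its own in each panel) in the 3 pools, with points for the deposited values and bars for the authors' interval. Myc was highest in the VD3 pool at 87.0 FPKM, Mga was at 64.1 FPKM in untreated cells and under 20 in both treated pools, and the bars of every member overlap between the pools.

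Mycn and Myc carried nearly all of the MYC family message. Mycn (chromosome 12, 12936093 to 12941914, minus strand) was at 72.2 FPKM (47.5 to 96.9) in untreated cells, 96.7 (63.5 to 129.9) with VD3 and 88.8 (57.8 to 119.7) in the combination. Myc (chromosome 15, 61985391 to 61990374, plus strand) was at 43.6 FPKM (27.3 to 59.8), 87.0 (56.3 to 117.7) and 62.6 (40.6 to 84.6) in the same order of pools. Both genes were lowest in untreated cells and highest with VD3, with the 2 treated pools above untreated and intervals that overlap. Mycl (chromosome 4, 122995652 to 123002485, plus strand), the remaining family member, was at 9.66 FPKM (4.74 to 14.6), 9.39 (6.10 to 12.7) and 8.33 (5.08 to 11.6), nearly level over the pools.

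The log2 difference of FPKM + 1 between VD3 and untreated was 0.98 for Myc, 0.42 for Mycn and -0.04 for Mycl. The median of the 10911 genes that reach 5 FPKM in at least 1 of these pools was itself at 0.36, so relative to that gene the differences were 0.62, 0.05 and -0.40. Mycn thus stood with the median gene, Myc above it and Mycl below it. By estimated count, Myc had 5360 ± 887 (SD of the authors' model), 10697 ± 1778 and 7429 ± 1204 counts, which is 86.3, 145.8 and 101.4 CPM, the counts scaled to the pool total. On that scale the difference of Myc with VD3 was 0.75 on the log2 scale, against a median gene at 0.13, and the model SD of such a difference is 0.34. On the scale of FPKM + 1, Myc at 1.97-fold lay just under the 2-fold used as a criterion here. So did Mxd3 in the combination against untreated, at 1.98-fold, and Max in the combination against VD3, 1.93-fold lower. With 0.1 added in place of 1, the log2 difference of Mxd3 was 1.08, which is past 2-fold.

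Adding MM-401 to VD3 went with a lower Myc. Its log2 difference against VD3 alone was -0.47 in FPKM, -0.52 in CPM and -0.51 after adjustment for GC content and length, with overlapping intervals. Mycn differed by -0.12 and Mycl by -0.16 in the same comparison, where the median gene was at 0.02. Against untreated cells, VD3 plus MM-401 left Myc at 0.51 and Mycn at 0.29, or 0.24 and 0.03 relative to the median gene of that comparison, which was at 0.27. The comparisons share pools, so the side on which Myc lies in one bears on its side in the other.

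Summed over the 3 genes, the family stood at 125.5, 193.1 and 159.7 FPKM. Mycn gave 57.6%, 50.1% and 55.6% of the sum and Myc 34.7%, 45.1% and 39.2%. The ratio of Mycn to Myc was 1.66, 1.11 and 1.42. From estimated counts per kilobase of the longest annotated coding transcript, the same ratio was 1.85, 1.23 and 1.65 and the family sums were 111.9, 146 and 120.2 CPM per kilobase. Both scales put the 2 genes closest together in the VD3 pool.

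**Figure D2:**
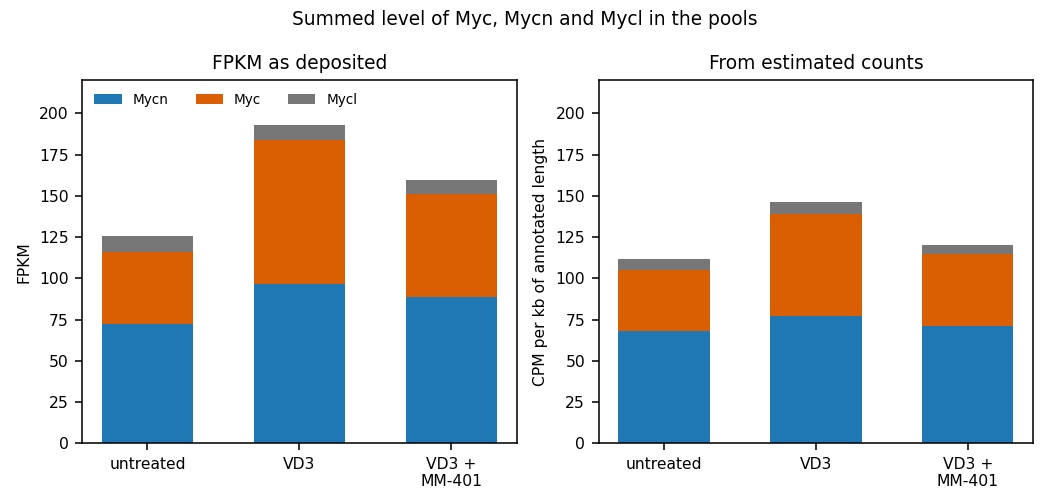
Summed level of Myc, Mycn and Mycl in each pool, as stacked bars from 0, in FPKM as deposited on the left and in CPM per kilobase of annotated length on the right. Mycn is the largest part of every bar, and the Myc part is largest in the VD3 pool, at 45.1% of the FPKM sum; no error is drawn, since the pools have no replicates.

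The common partner Max lay on opposite sides of untreated on the 2 scales in the combination. Max (chromosome 12, 76937269 to 76962201, minus strand) had 8675 ± 1459 (SD of the authors' model), 13720 ± 2258 and 12904 ± 2177 estimated counts, or 139.7, 187 and 176.1 CPM. Its deposited FPKM was 365 (15.1 to 715.7), 446 (0 to 944.7) and 230.7 (0 to 603.9). By count both treated pools lay above untreated, and by FPKM the VD3 plus MM-401 pool lay below it. The log2 difference of VD3 plus MM-401 against untreated was -0.66 in FPKM and 0.33 in CPM, and against VD3 alone it was -0.95 and -0.09. The ratio of count to FPKM amounts to a transcript of 382, 419 and 763 bases in the 3 pools, whereas the coding transcripts of Max in GENCODE vM21 run from 752 to 1942 bases and all 7 of its transcripts from 203 to 1942 bases. Why this length differs between pools was not tested, and Max has no direction common to both scales in the comparison of the combination with untreated. In its locus GENCODE also lists Gm47218, and the counting is not stated to use strand.

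Mga differed most of all members in both comparisons with untreated by FPKM and by CPM, though not after adjustment for GC content and length in the combination, where Max was at -1.06 and Mga at -0.91. Mga (chromosome 2, 119897228 to 119969581, plus strand), the T-box and zipper subunit of PRC1.6, was at 64.1 FPKM (16.5 to 111.8) in untreated cells, 17.2 (5.43 to 29.0) with VD3 and 18.6 (2.67 to 34.5) in the combination. Its estimated counts were 25871 ± 4382 (SD of the authors' model), 7008 ± 1153 and 7546 ± 1396. The untreated pool was high and both treated pools were low and close to each other. On the scale of FPKM + 1 the VD3 pool was 3.58-fold lower and the VD3 plus MM-401 pool 3.33-fold lower than untreated, and the 2 treated pools differed by 0.10 on the log2 scale. In CPM the log2 differences from untreated were -2.11 and -2.01.

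By the authors' FPKM intervals the Mga pools overlap, since the untreated interval reaches down to 16.5. By count, with 2 SD of the authors' model on each side, untreated lay apart from both treated pools. Of the 8 members that reach 5 FPKM in a comparison, 0 passed a 2-fold difference with FPKM intervals apart. The upper bound of every member lay at 134% of its value or more. At such widths an exact 2-fold difference in FPKM still leaves the intervals overlapping. The lower bound was 0 for Mxd3 in every pool and for Max in both treated pools. Mxd3 in any comparison, and Max between the treated pools, therefore could not pass. The background of that rule with VD3 was 0.926% of genes higher and 4.22% lower, and with values centred on the median gene 0.422% and 6.58%. With VD3 plus MM-401 against untreated the background was 4.26% higher and 2.68% lower, and centred 1.72% and 3.69%. Against VD3 alone it was 0.83% higher and 0.541% lower, and centred 0.765% and 0.569%. At 2-fold in FPKM + 1 with no regard to intervals, Mga was the 1 member counted, as lower in both comparisons with untreated. There 8.7% and 6.24% of genes were lower and 3.54% and 13.4% higher. That Mxd3 was not counted in the combination depends on the 1 added to FPKM, as given above. Against VD3 alone 0 members were counted, with 4.67% of genes higher and 2.02% lower. At 2-fold in CPM with counts apart by 2 SD, a rule added after the tables were examined, Mga again was the 1 member, where 9.33% and 5.77% of genes were lower and 0.192% and 1.84% higher. Against VD3 alone 0 members were counted by it, with 0.607% higher and 0.084% lower. A single lower member among 8 is near these backgrounds.

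**Figure D3:**
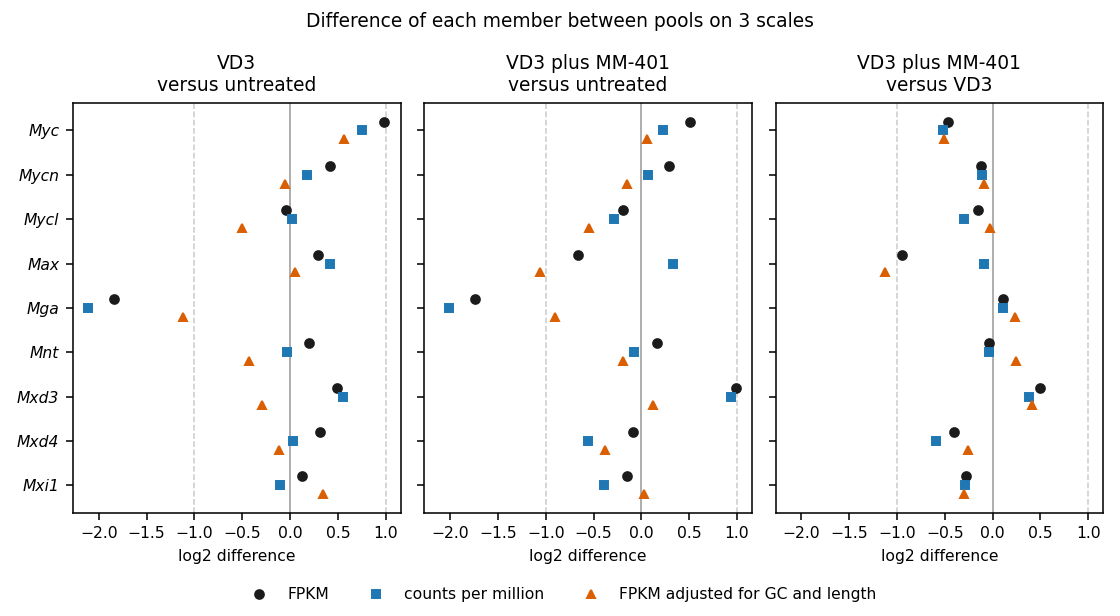
Log2 difference of each member in 3 comparisons of pools (horizontal axis, dashed lines at 2-fold), as circles from FPKM + 1, squares from CPM + 1 and triangles from FPKM adjusted for GC content and length. Mga lies beyond 2-fold by both unadjusted scales in the comparisons with untreated, at -1.84 and -1.73 in FPKM, and the circle and square of Max lie on opposite sides of 0 with VD3 plus MM-401 against untreated.

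Composition of the transcript moved with the differences of all genes, and Mga has an extreme transcript. Its longest coding transcript has 13931 bases and a GC content of 42.2%, and the 440 protein-coding genes in the same 1 of 20 bins of GC content had a median VD3 difference of -0.49, with quartiles of -0.97 and 0.03. The 440 genes of the longest bin, which holds Mga, had a median of -0.24 and quartiles of -1.03 and 0.21. At -1.84 Mga lay below the lower quartile of both bins. The bins and the fit use the longest coding transcript, whereas the shortest coding transcript of Mga has 6995 bases. For Mga the ratio of count to FPKM amounts to 6497, 5550 and 5544 bases in the 3 pools, so its place by length is uncertain. A straight-line fit on GC content and log2 length over 8797 protein-coding genes left Mga at -1.12, where the residual SD over genes was 0.53. On that adjusted scale 4.47% of genes were 2-fold lower and 1.34% higher, and Mga was the 1 member past 2-fold. In both comparisons of the combination the 1 member past 2-fold when adjusted was Max, at -1.06 against untreated (3.64% of genes lower, 3.36% higher) and -1.12 against VD3 (1.05% lower, 2.07% higher), with the intervals and the count values given above. With the square of the GC content added, since the trend is curved, Mga was at -0.98 with VD3 and -0.81 in the combination, both within 2-fold. The direction of Mga was the same in all of these.

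**Figure D4:**
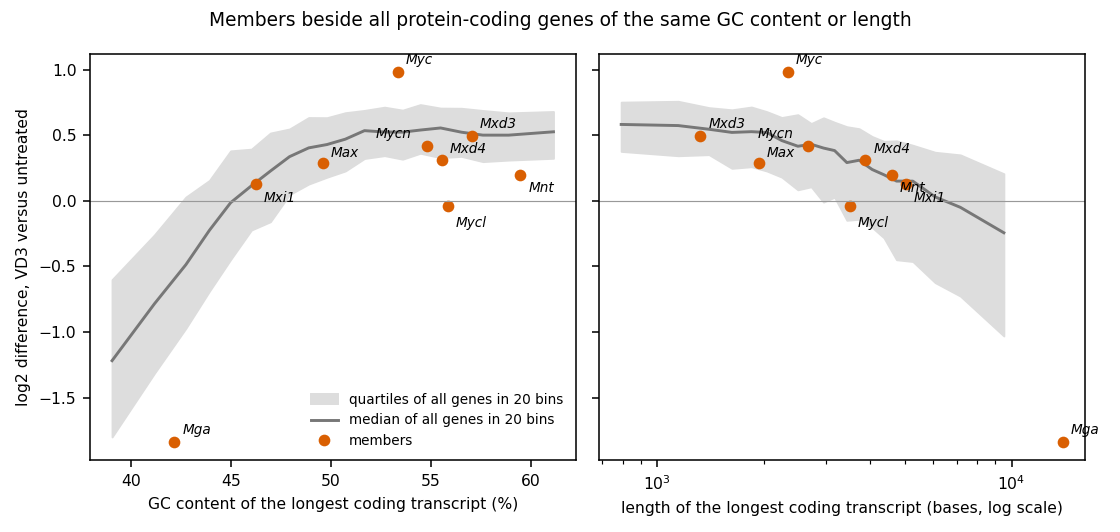
Log2 difference in FPKM + 1 between the VD3 and untreated pools (vertical axis) against GC content and against length of the longest coding transcript (horizontal axes, the length on a log scale), with the median (line) and quartiles (grey band) of all protein-coding genes in 20 bins and the members as points. Mga, at 42.2% GC and 13931 bases, lies below the band in both panels, and Myc lies above the band in both.

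Myc lay on the other side of its bins. The 440 genes in its GC bin had a median of 0.52 and an upper quartile of 0.69, and Myc, at 0.98, was above that. After the straight-line fit Myc was at 0.57 with VD3 and 0.06 in the combination. With the squared term it was at 0.42 and -0.04, so relative to genes of like composition the sign of Myc in the second comparison depends on the fit. Mycl was at -0.51 and -0.54 after the straight-line fit.

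The MAX-binding repressors had low levels, and the interval of Mxd3 reached 0 in every pool. Mnt (chromosome 11, 74830920 to 74845725, plus strand), the repressor found in most cell types, was at 7.75 FPKM (4.43 to 11.1), 9.03 (5.25 to 12.8) and 8.76 (5.19 to 12.3). Mxi1 (chromosome 19, 53310518 to 53375810, plus strand), also known as MXD2, was at 7.56 (4.89 to 10.2), 8.34 (5.46 to 11.2) and 6.69 (4.36 to 9.03). Both varied little over the pools, with VD3 differences of 0.20 and 0.13 in FPKM and -0.03 and -0.11 in CPM. The sign of these small differences therefore depends on the scale.

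Mxd4 (chromosome 5, 34173883 to 34187720, minus strand) was the lowest member in every pool, at 1.40 FPKM (0.527 to 2.26), 1.97 (0.799 to 3.13) and 1.25 (0.231 to 2.27), and did not reach the minimum of 5 FPKM. Mxd3 (chromosome 13, 55325168 to 55329823, minus strand), which in other cells is known for expression during S phase, was at 6.50 FPKM (0 to 17.2), 9.56 (0 to 25.0) and 13.9 (0 to 34.3). Its counts of 402 ± 302, 729 ± 573 and 972 ± 695 (SD of the authors' model) carry an error of 75.1%, 78.6% and 71.5%, against 16.2% to 18.5% for Myc, Mycn, Mycl, Max, Mga, Mnt and Mxi1. The order of Mxd3 over the pools, lowest in untreated and highest with VD3 plus MM-401, lies well within that error. GENCODE lists Prelid1 as overlapping Mxd3, so reads of the 2 genes cannot be told apart with certainty.

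The 4 repressors Mnt, Mxd3, Mxd4 and Mxi1 summed to 23.2, 28.9 and 30.6 FPKM. The MYC family sum was 5.41, 6.68 and 5.22 times that of the repressors, and 5.11, 6.14 and 4.98 times from counts per kilobase. On both scales the ratio was highest with VD3. Mxd3 is 6.50, 9.56 and 13.9 FPKM of the repressor sums, and its counts carry a model error of 75.1%, 78.6% and 71.5%. The order of the ratio over the pools is therefore uncertain and was not tested. Mxd1, the founding MXD gene, is in 1 row with Snrnp27 and Gm44292, and so has no value of its own. That row was at 67.6 FPKM (44.2 to 91.1), 83.9 (54.3 to 113.6) and 127.1 (78.2 to 176.1).

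In order of level, Max led in every pool by FPKM, followed by Mycn. Mga came next in untreated cells, above Myc, and stood below Myc in both treated pools. Only some neighbours in the order lay apart by the authors' intervals. In untreated cells this was Myc above Mycl, and in both treated pools it was Myc above Mga and Mxi1 above Mxd4. From counts per kilobase of annotated length, Max at 72.0 and Mycn at 68.2 CPM per kilobase stood close together in untreated cells, with Myc at 36.9 and Mga at 29.9. Mga was at 6.86 and 7.39 CPM per kilobase in the treated pools, level there with Mnt, which was at 7.48 and 7.26. These Mga values rest on its longest coding transcript, and a shorter length would give higher ones.

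Over all 9 members the median log2 difference was 0.29 with VD3 against untreated, -0.09 with VD3 plus MM-401 against untreated and -0.16 with VD3 plus MM-401 against VD3. The medians of the 14216 genes with a mean of at least 1 FPKM were 0.30, 0.21 and 0.01. The members' median thus matched that of these 14216 genes with VD3 and lay below it in the other comparisons. Relative to the median of genes that reach 5 FPKM, used above for Myc, it was -0.08 with VD3, with 6 of 9 members below. Of 27 differences in all, 13 were above 0 and 0 had FPKM intervals apart.

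Other genes of the family and of the wider network were measured as well. Bmyc, a rodent MYC relative without the DNA-binding part, was at 13.4 FPKM (8.31 to 18.5), 19.9 (12.7 to 27.1) and 23.4 (15.0 to 31.9), lowest in untreated cells. Mycs was listed at 0 in every pool. Mlx, the MAX-like partner of the glucose-sensing MLXIP proteins, was at 76.0 FPKM (39.1 to 112.9), 115.8 (62.1 to 169.4) and 74.1 (10.8 to 137.5), highest with VD3. Mlxip was at 7.79, 13.2 and 10.2 FPKM and Mlxipl at 2.61, 1.41 and 1.72. The 4 of these with a mean of at least 1 FPKM had 0 members past 2-fold in any comparison, beside the shares of all genes at 2-fold given above.

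MYC proteins act through cofactors that open chromatin and release paused polymerase. The 14 cofactor genes had a median of 0.53 with VD3 against untreated, beside 0.30 for all genes, 0.38 with VD3 plus MM-401 against untreated, beside 0.21, and -0.17 against VD3, beside 0.01. With VD3, 11 of 14 lay above the median of all genes. After the straight-line adjustment described above, the list's medians in the 3 comparisons were 0.11, 0.16 and -0.0053. With VD3, 0 of the 14 had a 2-fold difference with intervals apart, beside the shares of all genes given above for that rule. Ruvbl2, a helicase of the TIP60 and INO80 complexes, was at 897.7, 1269 and 1832 FPKM with a lower bound of 0 in both treated pools. Its estimated counts were 26061, 40166 and 40823, nearly level between the treated pools. Wdr5, which docks MYC on chromatin and is also a subunit of MLL complexes, had log2 differences of 0.86 with VD3, 0.37 in the combination and -0.49 between the treated pools, with overlapping intervals. Cdk9, the kinase of P-TEFb, was at 101.5, 307 and 132.8 FPKM, and its VD3 interval ran from 0 to 1645. Its estimated counts were 4862, 7974 and 7148, so the treated pools lay closer together by count than by FPKM.

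The corepressor genes that MXD and MNT recruit spread widely. Of 13 genes of SIN3 and NCOR complexes, 0 were higher and 1 lower by 2-fold with intervals apart with VD3, beside 0.926% and 4.22% of all genes. In the combination against untreated 1 was higher and 1 lower, beside 4.26% and 2.68%, so 1 of 13 is near the share of all genes. Arid4a, a SIN3 subunit that binds RB, was at 11.2 FPKM (6.96 to 15.4), 3.54 (2.23 to 4.85) and 4.09 (2.38 to 5.80). Sap30, another SIN3 subunit, was at 53.1 (35.5 to 70.7), 78.2 (52.5 to 103.8) and 133.6 (85.1 to 182.1). Arid4b, a relative of Arid4a, was at 12.7 FPKM (3.31 to 22.0), 1.56 (0 to 3.38) and 1.58 (0 to 4.12), with intervals that overlap. Arid4a and Arid4b were low in both treated pools, like Mga, and Sap30 was highest in the combination. After the straight-line adjustment Arid4a was at -1.07 and -0.99 and Sap30 at -0.02 and 0.54 against untreated.

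The 11 partners of MGA and MAX in PRC1.6 spread to both sides. They had medians of 0.06, -0.32 and -0.09 in the 3 comparisons, in the order used above, beside 0.30, 0.21 and 0.01 for all genes. Of these partners 0 had intervals apart with a 2-fold difference, beside the shares of all genes given above for that rule. Rnf2, the ubiquitin ligase RING1B, was at 143.4 FPKM (60.3 to 226.4), 62.4 (22.6 to 102.1) and 55.6 (5.64 to 105.6). Cbx3, the heterochromatin protein HP1 gamma, was at 22.1 (12.4 to 31.9), 8.96 (5.34 to 12.6) and 12.2 (7.11 to 17.3). L3mbtl2, the MBT-domain subunit, was at 65.3, 107.9 and 71.6 FPKM. Rnf2 and Cbx3 were lowest in the treated pools, and L3mbtl2 was highest with VD3.

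Germline genes that MAX, MGA and PRC1.6 are known to silence had a median below that of all genes in both comparisons with untreated. The list holds 17 genes, among them Zfp42, which is a pluripotency gene, and 16 had a mean of at least 1 FPKM. Their median was -0.40 with VD3, -0.28 with VD3 plus MM-401 and 0.08 for VD3 plus MM-401 against VD3, beside 0.30, 0.21 and 0.01 for all genes. Among genes with a mean of at least 5 FPKM the list's medians against untreated were -0.21 and 0.0051, so the negative median of the combination rests on genes of low level, and after the straight-line adjustment the median between the treated pools was -0.29. With VD3, 2 of the 11 that reach 5 FPKM were lower and 0 higher by 2-fold with intervals apart, beside 4.22% and 0.926% of all genes. In the combination 3 of 12 were lower and 0 higher, beside 2.68% and 4.26%. Meioc, a meiotic regulator, was at 9.16 FPKM (5.59 to 12.7), 0.786 (0.395 to 1.18) and 1.67 (0.736 to 2.61). Dazl, a germ cell RNA-binding protein, was at 6.98 (4.48 to 9.49), 1.85 (1.00 to 2.71) and 2.94 (1.72 to 4.15). Hormad1, of the meiotic chromosome axis, was at 12.9 (8.10 to 17.7), 7.39 (4.46 to 10.3) and 2.90 (1.09 to 4.71). Meioc and Dazl were high in untreated cells only, and Hormad1 was lowest in the combination. Stra8, the retinoic acid target at meiotic entry, was at 70.1, 52.0 and 42.4 FPKM, with intervals that overlap. The straight-line adjustment left Meioc at -1.84 and Dazl at -0.83 with VD3, and the list's median at -0.11. Of the 17 promoters, 10 hold the E-box CACGTG, or 58.8%, beside 8.09% of all genes. The list was chosen as known targets of MAX, MGA and PRC1.6, so this share is not independent of that choice.

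Genes that MYC is known to activate stood a little above the median of all genes with VD3. The 26 genes of the nucleolus and of ribosome biogenesis had a median of 0.55 with VD3, with 18 above the median of all genes, 0.41 with VD3 plus MM-401 and -0.10 for VD3 plus MM-401 against VD3. The 25 measured genes of metabolism and the cell cycle had medians of 0.49, 0.24 and -0.14, with 19 above the median of all genes with VD3. In both lists 0 genes had a 2-fold difference with intervals apart in any comparison, beside the shares of all genes given above for that rule. After the straight-line adjustment the VD3 medians were 0.14 and 0.21.

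Single targets spread to both sides. Odc1, the rate-limiting enzyme of polyamine synthesis and a classical MYC target, was at 484.7 FPKM (289.8 to 679.6), 822 (478.9 to 1165) and 625 (290.4 to 959.9). Cdk4, a G1 kinase, was at 1137, 1821 and 1913 FPKM. Ncl, nucleolin, was at 916 FPKM (509.2 to 1324), 593 (343.2 to 842.8) and 2053 (0 to 4267), whereas its counts were 194249, 127198 and 201642. Its log2 difference between VD3 plus MM-401 and untreated was 1.16 in FPKM and -0.19 in CPM, so Ncl, like Max, had no direction common to both scales. Wdr43, a ribosome biogenesis factor, was at 90.4, 46.5 and 72.5 FPKM, lowest with VD3. The E-box occurs in 5 of 22 promoters of the nucleolar list (22.7%) and in 9 of 24 of the metabolic one (37.5%). Both lists were chosen as known MYC targets, so these shares are not independent of that choice.

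The genes MYC is known to repress together with MIZ1 had medians of 0.25, 0.40 and 0.15, beside 0.30, 0.21 and 0.01 for all genes. After the straight-line adjustment these medians were -0.21, -0.12 and 0.09. Of the 8 genes, 7 reached 5 FPKM in each comparison, and 0 of these had a 2-fold difference with intervals apart. The shares of all genes by that rule are given above. Cdkn1a, the inhibitor p21, was nearly level at 46.9, 57.4 and 53.7 FPKM. Gadd45a, a stress-response gene, was at 117.6 FPKM (71.7 to 163.5), 132.9 (75.7 to 190.0) and 238 (141.1 to 335.2), highest with VD3 plus MM-401. The E-box occurs in 0 of 6 promoters of this list that are in the table.

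**Figure D5:**
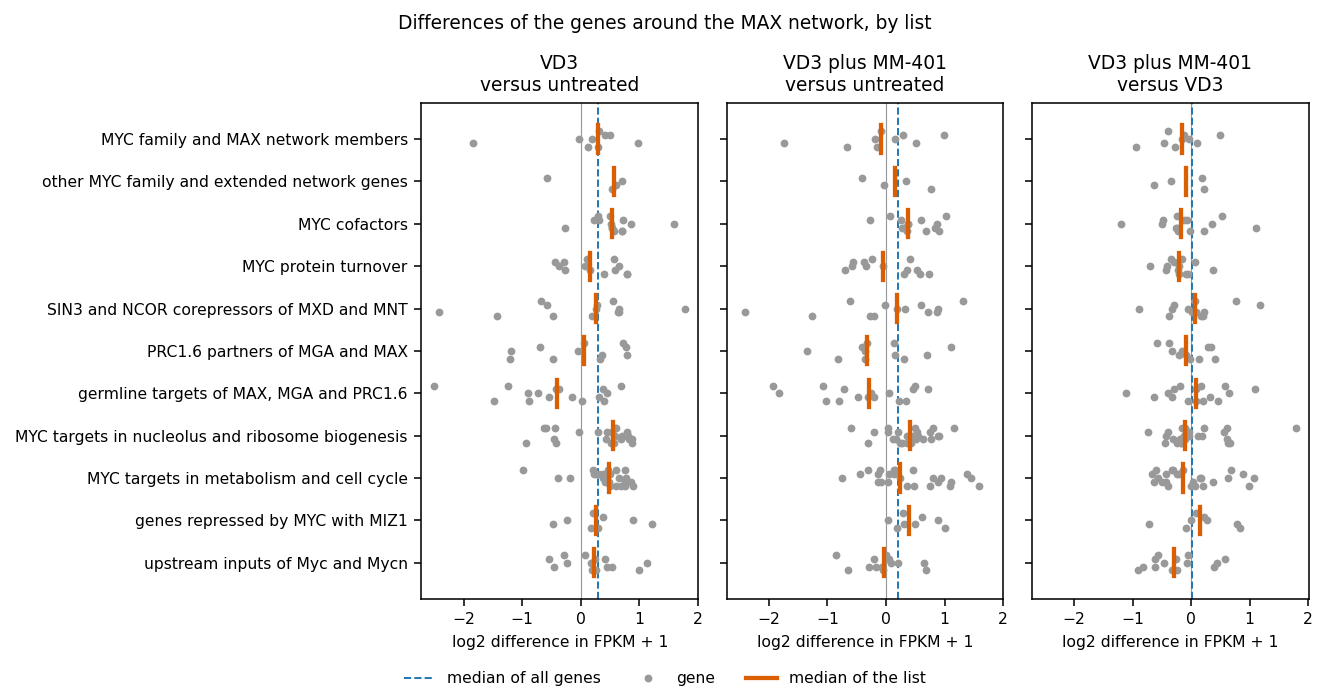
Log2 difference in FPKM + 1 of the genes in each list (grey points, genes with a mean of at least 1 FPKM) in 3 comparisons of pools, with the median of the list (orange bar) and of all genes (dashed blue line). With VD3 the germline list has its median at -0.40 and both lists of MYC-activated genes at 0.55 and 0.49, beside 0.30 for all genes.

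By pattern over the 3 pools, the protein-coding genes nearest to Myc included Faap24, Zfp13, Ext1 and Stx18, at Euclidean distances of 0.02 to 0.04 on centred log2 values of FPKM + 1. Ext1, an enzyme of heparan sulfate synthesis, was at 24.5, 48.9 and 36.0 FPKM. The genes nearest to Mycn were Trp53, Lgals9, Zfp473, Tob2 and Epb41l4b. Trp53, which encodes p53, was at 252.6, 338 and 310.8 FPKM. The search ran over 8965 genes, and 3 pools are few, so many genes lie close to any pattern.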

How the data were processed

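Per the labels' protocols, 6 TruSeq RNA libraries were made, in 3 groups. TopHat2 2.1.1, SAMtools 1.5, Cufflinks 2.2.1 and build mm10 are named in the submitters' processing notes, without order or settings. The authors deposited FPKM with lower and upper bounds, per the file headers, and the estimated count of each of 62490 loci with its variance, in 1 pooled column per group; 6 further variance columns were not used. The 14 loci without a valid status were left out, and loci that share a name were summed.

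With Python 3.11.15, differences were computed as log2 of FPKM + 1 among genes that reach 5 FPKM in either pool. Counts were divided by the pool total to give CPM. GC content and length are of the longest coding transcript in GENCODE vM21 (GRCm38). The call rule and the fit were run on simulated data. At the interval widths of the members, the rule could not find an exact 2-fold difference in FPKM. No test across libraries was possible, so the authors' bounds and count variances give the only error. Members, lists and the 2-fold rule were chosen with earlier results of these data known. All members are named; of other lists, genes were named where called, among the 4 highest by mean FPKM or the 2 with the largest difference in a comparison; Col1a1, Col1a2 and Mycs fall outside this rule and were named after their values were seen. One gene that the rule on likeness of pattern names is not reported here. Coordinates count from 1.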

Additional observations from a re-analysis of the deposited data

How the results depend on the processing

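No paired analysis was possible because each group is 1 pooled column, and for the same reason leaving out a library was not run. The 0 members with a 2-fold difference and intervals apart became 1, Mga, in each comparison with untreated without the interval criterion. By CPM with counts apart by 2 SD they also became 1 in each of these. They were 0 under the other alternatives, among them pseudocount 0.1, 1 or no minimum FPKM, and 1.5-fold. The alternatives named kept the FPKM intervals, which were apart in 0 of 27 member differences. They therefore could not add a member. Genes counted over the tables ranged from 127 to 1335 around 561 with VD3, from 116 to 2150 around 761 with VD3 plus MM-401, and from 27 to 716 around 147 between the treated pools. The members' median with VD3, 0.29, was 0.033 in CPM, -0.076 centred on the median gene, -0.12 adjusted for GC content and length and -0.16 with squared GC content; with VD3 plus MM-401 against untreated, -0.09 became -0.36 when centred. The cause was not tested. Of 27 member differences, 5 changed sign in CPM, 5 when centred, 8 when adjusted, 9 with squared GC content and 0 with pseudocount 0.1. Mxd3 and Mxd4 had the fewest counts of the members. Mxd4 had fewer than Mxd3 in every pool but a smaller model error, 22.1%, 21.7% and 29.6% of its counts. Why the error of Mxd3 is larger was not tested. The squared fit and the count rule were chosen after seeing the data.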

Other observations

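Genes that act on MYC protein stability had FPKM medians below those of all genes. Of 14 such genes, 13 had a row of their own. Their median log2 differences were 0.16 with VD3, -0.05 with VD3 plus MM-401 and -0.21 between the treated pools. The medians of all genes were 0.30, 0.21 and 0.01. In CPM the list's medians were -0.01, 0.05 and -0.14, beside 0.08, -0.0048 and 0.0082, so in the combination against untreated the list lay above all genes. After the straight-line adjustment the list's medians were 0.16, -0.14 and -0.16. In this list 0 genes had a 2-fold difference with intervals apart, beside the shares of all genes given above for that rule. Aurka, a mitotic kinase known to shield MYCN from degradation, was at 116.7 FPKM (76.0 to 157.5), 202.5 (132.8 to 272.2) and 194.9 (123.9 to 265.9). Pim3, a kinase gene of the PIM family, was at 58.2 (39.1 to 77.2), 101.3 (67.7 to 134.9) and 87.4 (58.5 to 116.4). Usp28, a deubiquitinase that opposes FBXW7, was at 79.2, 65.2 and 48.2 FPKM. Aurka and Pim3 were lowest and Usp28 highest in untreated cells.

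Of 14 genes upstream of Myc and Mycn with a row of their own, 12 reached 5 FPKM in the comparison of VD3 with untreated, and 1 of these was higher by 2-fold with intervals apart, beside 0.926% of all genes. Lin28a, an RNA-binding protein that blocks let-7, was at 117.3 FPKM (76.0 to 158.7), 257.3 (164.2 to 350.4) and 185.6, and its log2 difference with VD3 was 1.13 in FPKM and 0.89 in CPM, the latter under 2-fold. Stat3, the transcription factor of the LIF pathway, was at 53.5, 77.7 and 43.4 FPKM with overlapping intervals. The medians of the list were 0.22, -0.03 and -0.29, beside 0.30, 0.21 and 0.01 for all genes. After the straight-line adjustment the list's medians were 0.19, -0.02 and -0.31.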
